A study of Mus musculus with 6 samples.

Results

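The genes described here are the Klotho co-receptors, the FGF receptors and 4 FGF ligands that act on or come from adipose tissue: Klb and Kl, Fgfr1 to Fgfr4, and Fgf21, Fgf1, Fgf2 and Fgf10. These 10 genes, of 21996 named genes on the array, were taken by symbol from the platform annotation, and all 10 were measured. Each was read by the probe set with the highest mean over the arrays, and Fgf10 alone had a second one. They were measured in C3H10T1/2 adipocytes, fat cells differentiated in culture from a mouse mesenchymal line, on 6 Affymetrix Mouse Gene ST arrays with 1 culture each. All cultures are labelled as differentiated for 9 days and received adenovirus (multiplicity of infection 50) for 72 h. The 3 control cultures got a scrambled hairpin (scramble), and the other 3 got a hairpin against Zc3h10, a zinc finger RNA-binding protein, made from a U6 promoter (Zc3h10 shRNA). The labels call these biological replicates. Both groups thus carried virus, and cultures without virus were not analysed here. Whether they came from separate differentiations is not stated, so the spread between arrays may be partly technical.

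Beta-Klotho, the product of Klb, is a membrane protein that lets the hormone FGF21 bind FGFR1 on adipocytes, since endocrine FGFs attach only weakly to heparan sulfate and need a Klotho protein as a second contact. Kl encodes alpha-Klotho, which plays the same part for FGF23, chiefly in kidney. Paracrine FGFs such as FGF1, FGF2 and FGF10 signal with heparan sulfate as cofactor, and FGF1 and FGF10 are known for roles in the remodelling and formation of adipose tissue. Activated receptors signal through RAS and MAP kinases, which induce feedback inhibitors of the Sprouty and dual-specificity phosphatase families.

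The sequences just upstream of Klb and Fgf10, the pair of genes that were lower in the Zc3h10 shRNA cells by the array-wide threshold, and of Fgf21, the hormone that needs beta-Klotho, are shown first. Of the 10 genes, 8 had an entry in the RefSeq promoter table (GRCm38.p6), with 9 windows in all. Fgfr1 and Fgf1 had none. Each sequence runs 5′ to 3′ on the gene's strand over the 250 bases before the annotated start, at chr5:65348161-65348410 (plus strand) for Klb, chr13:118714449-118714698 (plus strand) for Fgf10 and chr7:45615491-45615740 (minus strand) for Fgf21. Capitals mark matches to the motifs described after the sequences.
Klb: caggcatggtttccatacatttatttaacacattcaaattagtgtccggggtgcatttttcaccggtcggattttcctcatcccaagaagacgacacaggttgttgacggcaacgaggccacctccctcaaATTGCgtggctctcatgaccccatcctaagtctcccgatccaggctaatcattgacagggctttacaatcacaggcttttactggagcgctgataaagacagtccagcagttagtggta
Fgf10: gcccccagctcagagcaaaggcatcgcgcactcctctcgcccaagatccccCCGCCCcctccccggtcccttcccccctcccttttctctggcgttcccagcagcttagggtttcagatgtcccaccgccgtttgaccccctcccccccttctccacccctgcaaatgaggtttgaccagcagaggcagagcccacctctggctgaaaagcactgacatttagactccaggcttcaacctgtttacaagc
Fgf21: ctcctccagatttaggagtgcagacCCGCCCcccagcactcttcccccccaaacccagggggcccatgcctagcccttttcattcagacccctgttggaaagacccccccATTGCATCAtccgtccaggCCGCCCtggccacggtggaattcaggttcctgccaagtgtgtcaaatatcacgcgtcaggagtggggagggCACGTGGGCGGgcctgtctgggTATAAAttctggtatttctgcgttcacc
Both strands were searched. AGGTCA is a nuclear receptor half-site. ATTGC is a C/EBP half-site. The composite C/EBP-ATF element, bound by ATF4, was searched as TGATGCAAT. CACGTG is an E-box. GGGCGG is a GC box. TATAAA is a TATA box. In Klb the only match was ATTGC, 119 to 115 bases before the start, a motif held by 23.1% of all 32851 windows of this length. In Fgf10 the only match was a GC box on the opposite strand, 199 to 194 bases before the start, a motif held by 32.7% of windows. Fgf21 held TGATGCAAT on the opposite strand 140 to 132 bases before the start, a motif present in 0.167% of windows, and its ATTGC match lies inside that element. It also held CACGTG 50 to 45 bases before the start (6.02% of windows), where its last base is the first of a GC box. Of its other GC boxes, on the opposite strand, one began 225 and one 121 bases before the start. It also held TATAAA 28 to 23 bases before the start (12.4% of windows). AGGTCA, held by 14% of windows, was in none of the 9 windows of these genes. These matches describe letters in short windows and were not tested as binding sites.

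The arrays had median intensities of 15.6 to 16.1, and pairs of arrays correlated over all probe sets at 0.992 to 0.994 within groups and 0.985 to 0.988 between them (Pearson, log2 values). Zc3h10 itself was at 25.9, 39.0 and 35.3 intensity units on scramble arrays 1 to 3 and at 25.2, 30.2 and 22.9 on shRNA arrays 1 to 3, so the groups overlapped. The log2 difference was −0.34 ± 0.17 (SE, n = 3 per group; limma, adjusted p = 0.301; two-sided exact permutation p = 0.2, where 0.1 is the smallest possible), and the array did not resolve a knockdown. Of 14 measured adipocyte markers, 14 were above background on all 6 arrays. All 14 fell in the shRNA cells, where 6.6% of all named genes were called lower. The median log2 change of the 14 markers was −1.02. Their summed intensity was 26100 to 29193 on the scramble arrays and 14080 to 15097 on the shRNA arrays. In bulk RNA, fewer adipocytes and less RNA per adipocyte cannot be told apart.

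Klb was lower in the Zc3h10 shRNA cells, Fgf10 was moderately lower, and the receptors Fgfr1 and Fgfr2 had nearly the same level in both groups. Kl, Fgfr4 and Fgf21 gave signals within background in both groups. The 10 genes were proposed with this comparison already known, so their values are given as a description, with the SE of the fit across all probe sets and with no test of their own. By the array-wide threshold (limma, adjusted p under 0.05 over 33079 probe sets), 2 of the 10 were called, Klb and Fgf10, both lower, where 12.1% of all named genes were called (6.6% lower and 5.51% higher, with 9.79% of all probe sets called). The groups did not overlap for 3 of the 10, Klb, Fgf1 and Fgf10, all lower, where 31.9% of all named genes were without overlap (15.2% lower and 16.7% higher). The median log2 change of the 10 was −0.05, beside 0.01 over all named genes.

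**Figure D1:**
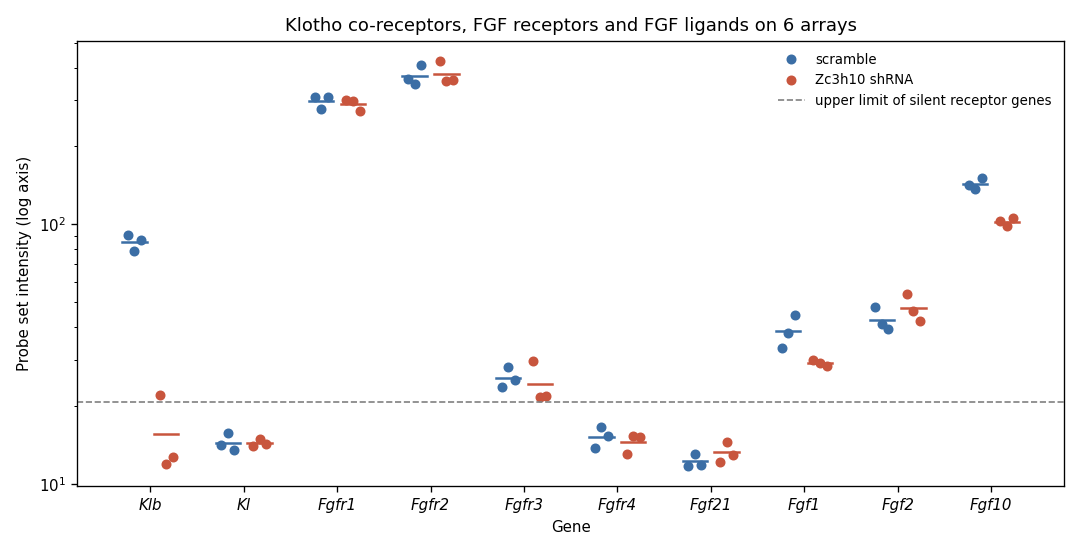
Probe set intensity (log axis) of the 10 genes on each of 3 scramble (blue) and 3 Zc3h10 shRNA (red) arrays, with bars at the group means and a dashed line at 20.7 units, the background limit taken from silent receptor genes. Klb lies between 79.1 and 90.8 on the scramble arrays and between 11.9 and 21.9 on the shRNA arrays, and levels of different genes are not comparable because probe sets differ in response.

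Klb read 90.8, 79.1 and 86.7 units on scramble arrays 1 to 3 and 21.9, 11.9 and 12.7 units on shRNA arrays 1 to 3. Every shRNA array lay far below every scramble array, and shRNA array 1 was the highest of its group. The means were 85.5 ± 5.92 and 15.5 ± 5.54 units (SD, n = 3 each). The log2 change was −2.52 ± 0.22 (SE), or 5.73-fold lower, so that 17.4% of the scramble signal was left (95% confidence interval 12.3 to 24.7%). On shRNA arrays 2 and 3 Klb lay within background, taken here as 20.7 units or less, the top of the range that holds the middle 95% of 1379 genes for smell and pheromone receptors, which are mostly silent outside sensory tissue. With all values under that limit raised to it, an alternative added after the data were seen, the log2 change was −2.02, and the true size of the fall below that limit cannot be read from these arrays. Adding 32 units before log2 gave −1.31.

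Kl, the alpha-Klotho gene, read 14.1, 15.7 and 13.5 units on the scramble arrays and 14, 14.9 and 14.2 units on the shRNA arrays. All 6 values lay within background, so Kl transcript was not detectable above it in either group.

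**Figure D2:**
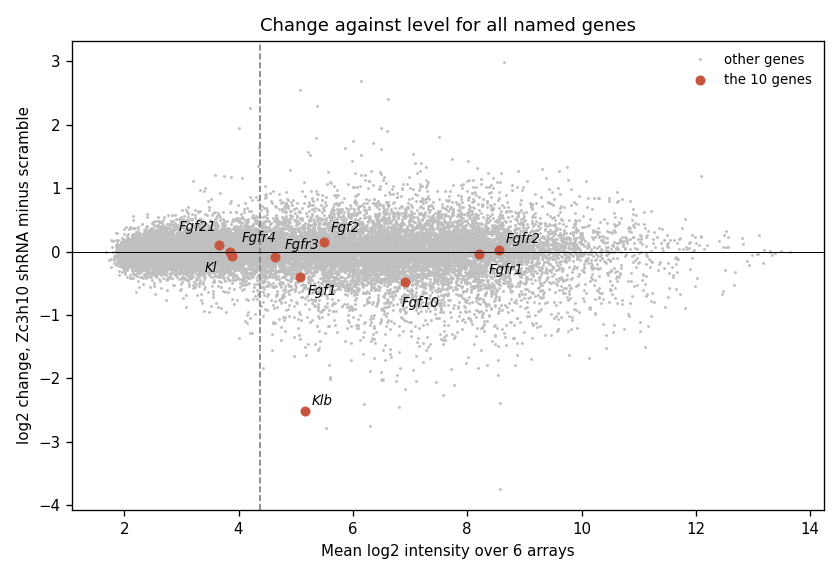
Log2 change (Zc3h10 shRNA minus scramble) against mean log2 intensity over 6 arrays for 21996 named genes (grey) and the 10 genes (red), with the dashed line at the background limit of 4.37. Klb stands at −2.52, while the other 9 genes lie between −0.48 and 0.15.

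Among the receptors, Fgfr1, the main partner of beta-Klotho in adipocytes, read 308, 279 and 309 units on the scramble arrays and 301, 299 and 273 units on the shRNA arrays. The groups overlapped, with a log2 change of −0.04 ± 0.09 and a level at 97.4% of scramble (95% confidence interval 84.0 to 113%). A change in Fgfr1 within that interval cannot be told from none at this number of arrays. Fgfr2, a receptor for FGF7 and FGF10 in its epithelial splice form, read 364, 347 and 411 units on the scramble arrays and 426, 357 and 358 units on the shRNA arrays. These also overlapped, at 102% of scramble (85.0 to 122%). A gene-level probe set cannot separate the splice forms of the receptors, which decide ligand preference.

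Fgfr3 read 23.5, 28.2 and 25.1 units on the scramble arrays and 29.7, 21.6 and 21.8 units on the shRNA arrays, only just above background. Its log2 change was −0.08 ± 0.14, with shRNA array 1 the highest of all 6. Fgfr4, the receptor that serves FGF15 with beta-Klotho in liver, read 13.7, 16.5 and 15.3 units on the scramble arrays and 13, 15.3 and 15.2 units on the shRNA arrays. All lay within background.

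Of the ligands, Fgf10, which is made by mesenchymal cells and preadipocytes, read 141, 137 and 151 units on the scramble arrays and 103, 98.8 and 106 units on the shRNA arrays. The groups were apart and each was tight, with a log2 change of −0.48 ± 0.09, or 71.6% of the scramble level (95% confidence interval 62.2 to 82.3%). The second Fgf10 probe set read 80.5, 84.7 and 66.8 units on the scramble arrays and 39.8, 29.9 and 44.2 units on the shRNA arrays. It was also lower on every shRNA array, and its log2 change of −1.04 ± 0.16 was over 2 times as large on the log2 scale as that of the first, so the size of the Fgf10 difference depends on the probe set. Without scramble replicate 3, the first probe set, at −0.44, no longer passed the array-wide threshold, and 1 of the 10 genes, Klb, was then called.

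Fgf1, which binds all 4 FGF receptors, read 33.4, 38.2 and 44.8 units on the scramble arrays and 30.0, 29.1 and 28.4 units on the shRNA arrays. The groups did not overlap, but the scramble arrays were widely spread. The log2 change was −0.40 ± 0.12 and did not pass the array-wide threshold. It passed without scramble replicate 1, at −0.50, and where probe sets under the median level were left out. Fgf2 read 47.8, 41.2 and 39.4 units on the scramble arrays and 53.9, 46.3 and 42.2 units on the shRNA arrays. These values overlapped, at 111% of the scramble level (95% confidence interval 91.0 to 135%). Fgf21, the hormone that needs beta-Klotho, read 11.7, 13 and 11.8 units on the scramble arrays and 12.1, 14.5 and 12.9 units on the shRNA arrays. All 6 values lay within background, so Fgf21 transcript was not detectable above it in either group.

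The fall of Klb was set beside the adipocyte markers on each array. Relative to the scramble mean, Klb was at −1.97, −2.85 and −2.74 on shRNA arrays 1 to 3 on the log2 scale. The median of the 14 adipocyte markers on the same arrays was −0.99, −1.07 and −1.0, with the lowest single marker at −1.50, −2.01 and −1.74. Klb thus lay below every one of the 14 markers on each shRNA array. On arrays 2 and 3 its readings of 11.9 and 12.7 units were within background, so the size of the gap there is uncertain. The markers fell between −0.66 (Fabp4, the fatty acid carrier) and −1.71 (Cebpa, an adipogenic transcription factor). As Klb was chosen from this comparison, the gap is a description, and the part that loss of adipocyte character plays in the Klb value was not tested.

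**Figure D3:**
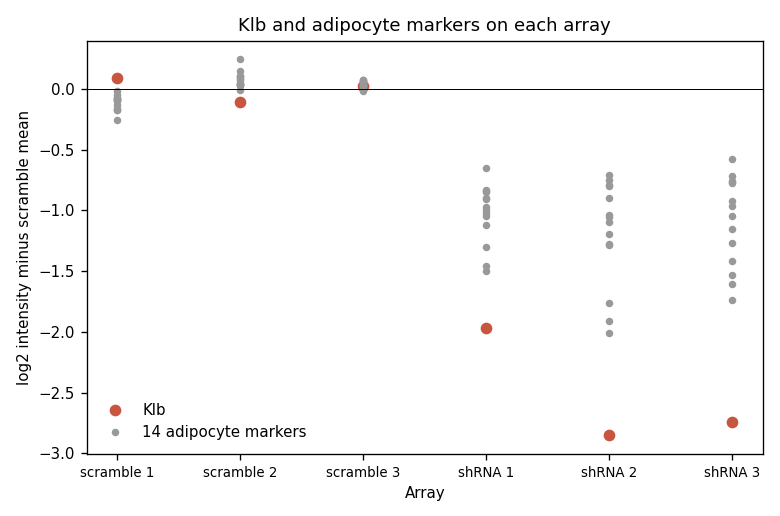
Log2 intensity minus the scramble mean for Klb (red) and 14 adipocyte markers (grey) on each of the 6 arrays. On shRNA arrays 1 to 3 Klb, at −1.97, −2.85 and −2.74, lies below all 14 markers. Its readings on shRNA arrays 2 and 3 are within background, so the size of the gap there is uncertain.

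The genes most like Klb were those with the smallest root mean square difference from it over the 6 arrays, after subtraction of each gene's scramble mean log2, among 16795 other protein-coding genes. They were Tmem45b and Cidea (both 0.16), Gys2 (0.19), Abcd2 (0.20) and H2-K1 (0.26). Klb lay within background on shRNA arrays 2 and 3, so its distances to these genes are uncertain there. Cidea, a lipid droplet protein, read 798, 939 and 897 units on the scramble arrays and 240.0, 139 and 139 units on the shRNA arrays. Gys2, a glycogen synthase, read 204, 213 and 197 units and then 44.9, 24.5 and 25.4 units. For Fgf10 the closest were Atl3 and Hsd3b7 (both 0.03), then Acp2, Tet1 and Rnf24 (all 0.04). Their log2 changes were −0.45 to −0.53, near the −0.48 of Fgf10. A small distance thus says little beyond a similar difference between the groups. H2-K1 has close paralogs that can bind the same probes.

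The other genes of the pathway were taken from 6 lists drawn up by role, with 93 measured genes. Of these, 21 rose and 5 fell (28.0% called, beside 12.1% of all named genes), with a median log2 change of 0.10. The rises included 8 of 23 heparan sulfate genes, 7 of 20 feedback and target genes, and 2 of 18 other ligands, Fgf7 and Fgf18. The 5 falls were Fgfrl1, Cbl, Shc1, Ndst2 and Dusp4. These lists were drawn up with earlier results of these data known, so the counts are descriptive.

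**Figure D4:**
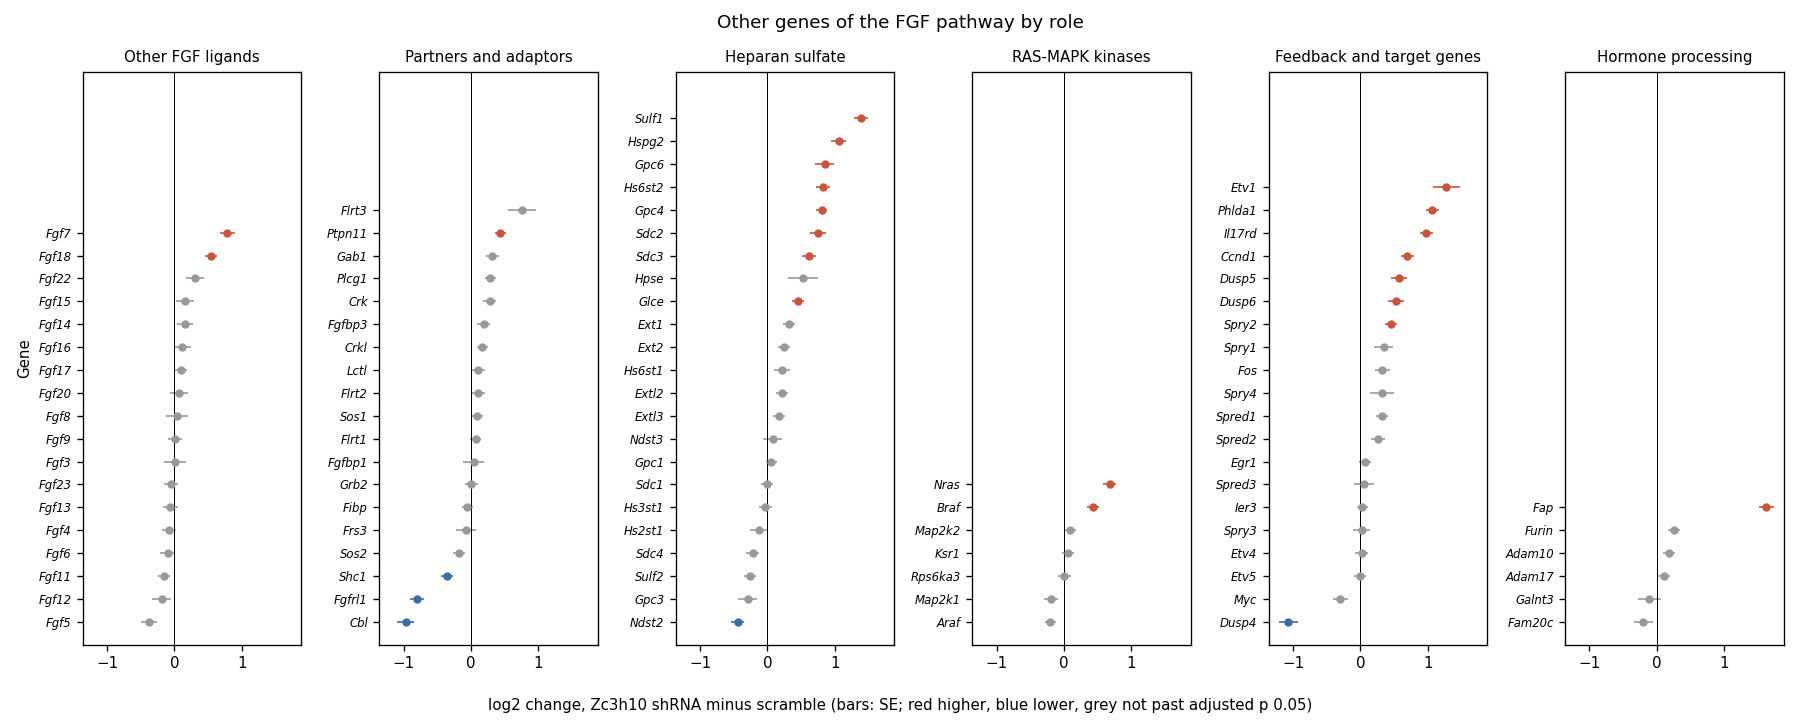
Log2 change (Zc3h10 shRNA minus scramble) with its SE for 93 genes in 6 role lists, 3 arrays per group, red where higher and blue where lower at an adjusted p under 0.05. The rises include 8 heparan sulfate genes and 7 feedback genes, while 13 of the 18 other FGF ligands lie within background.

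Of the 18 other FGF ligands, 2 rose and 16 did not pass (11.1% called, beside 12.1% of all named genes). Of the 18, 13 were within background on all 6 arrays. Fgf7, keratinocyte growth factor, which shares the FGFR2 splice form with FGF10, read 284, 225 and 236 units on the scramble arrays and 437, 444 and 406 units on the shRNA arrays. It rose by 0.79 ± 0.11 (1.73-fold; limma, adjusted p = 0.00394), with all shRNA arrays above all scramble arrays. Fgf18, known for its part in bone and cartilage, read 60.5, 62.3 and 64.0 units and then 85.0, 98.1 and 89.4 units, a rise of 0.54 ± 0.09 (adjusted p = 0.00878). Fgf9 (0.01 ± 0.11) and Fgf13 (−0.06 ± 0.11) were within background. Both calls held without each single array.

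Among 19 receptor partners and adaptors, 1 rose and 3 fell (21.1% called, beside 12.1% of all named genes), with a median of 0.09. Fgfrl1, an FGF receptor that lacks the kinase domain, read 879, 887 and 888 units on the scramble arrays and 575, 496 and 464 units on the shRNA arrays, a fall to a log2 change of −0.80 ± 0.10 (1.74-fold lower; adjusted p = 0.00280). Cbl, a ubiquitin ligase that sends activated receptors to degradation, was at −0.97 ± 0.13 (adjusted p = 0.00288), from 199 ± 29.0 to 101 ± 9.14 units (SD, n = 3 each). Ptpn11, the phosphatase SHP2 that carries the FGF signal to RAS, rose by 0.44 ± 0.08 (adjusted p = 0.0148), and the adaptor gene Shc1 was at −0.35 ± 0.09 (adjusted p = 0.0452). Lctl, a Klotho relative, was at 0.11 ± 0.10 (adjusted p = 0.613). Frs2, the main docking protein, was not analysed here. Leaving out shRNA replicate 2 (adjusted p = 0.0564) or 3 (0.0523), or scramble replicate 3 (0.0622), ended the call of Ptpn11. Shc1 was lost on leaving out each of the 6 arrays (up to 0.147, without scramble replicate 3), or with quantile scaling (0.0605). The count of 4 was 2 without scramble replicate 3 or without either of shRNA replicates 2 and 3.

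Of 23 genes of heparan sulfate, the cofactor of paracrine FGFs, 8 rose and 1 fell, with a median of 0.22. The share called was 39.1%, beside 12.1% of all named genes. Sulf1, which trims 6-O-sulfate from heparan sulfate at the cell surface, read 93.9, 77.5 and 81.3 units on the scramble arrays and 209, 221 and 231 units on the shRNA arrays. It rose by 1.39 ± 0.10 (2.63-fold; adjusted p = 0.000658). Hspg2, the basement membrane proteoglycan perlecan, rose by 1.06 ± 0.11 (adjusted p = 0.00117), the glypican genes Gpc4 and Gpc6 by 0.81 ± 0.08 and 0.85 ± 0.14, the sulfotransferase gene Hs6st2 by 0.83 ± 0.10, and the syndecan gene Sdc2 by 0.75 ± 0.12. The other 3 called genes, named after their values were seen, were Sdc3 (0.62 ± 0.11), Glce (0.45 ± 0.09) and the sulfotransferase gene Ndst2 (−0.44 ± 0.10). Glce was lost without shRNA replicate 3, scramble replicate 2 or scramble replicate 3 (up to 0.0666), and Ndst2 on leaving out each array other than shRNA replicate 1 (up to 0.0977). An ordinary t statistic called 5 of the 9 and left out Gpc6 (adjusted p = 0.0784), Ndst2 (0.0699), Sdc3 (0.0667) and Sdc2 (0.0513), and the background floor also ended the call of Gpc6 (0.0778).

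Of 7 measured genes of the RAS and MAP kinase core, 2 rose (28.6% called, beside 12.1% of all named genes). Nras, a RAS gene, was at 0.68 ± 0.10 (1.61-fold; adjusted p = 0.00559) and Braf, a kinase downstream of RAS, at 0.43 ± 0.09 (adjusted p = 0.0206). Braf was lost without scramble replicate 2 (adjusted p = 0.0815), scramble replicate 3 (0.0585), shRNA replicate 2 (0.0732) or shRNA replicate 3 (0.0687), which leaves Nras alone. The other 7 listed genes were not analysed here.

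Of 20 feedback inhibitors and ERK target genes, 7 rose and Dusp4 fell, with a median of 0.32. The share called was 40.0%, beside 12.1% of all named genes. Phlda1 read 98.9, 99.8 and 101 units on the scramble arrays and 193, 205 and 234 units on the shRNA arrays, a rise of 1.07 ± 0.10 (2.10-fold; adjusted p = 0.000881). Il17rd, the membrane inhibitor Sef, rose by 0.98 ± 0.10 (adjusted p = 0.00118), the cyclin gene Ccnd1 by 0.70 ± 0.10, and the transcription factor gene Etv1 by 1.28 ± 0.20 (adjusted p = 0.00625). An ordinary t statistic gave 0.0842 for Etv1, and the background floor 0.084. Dusp4, a nuclear MAP kinase phosphatase, was at −1.07 ± 0.14 (2.09-fold lower; adjusted p = 0.00285), from 131 ± 17.9 to 62.6 ± 8.39 units (SD, n = 3 each).

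Dusp6, the cytoplasmic ERK phosphatase and a common readout of FGF signalling, read 146, 129.7 and 145 units on the scramble arrays and 233, 175 and 204 units on the shRNA arrays, a rise of 0.53 ± 0.12 (adjusted p = 0.0318). The call ended on leaving out each array other than shRNA replicate 2 (up to 0.115, without scramble replicate 2), with an ordinary t statistic (0.124) and with the background floor (0.129). A second, dim Dusp6 probe set was at −0.02 ± 0.11. The Sprouty gene Spry2 rose by 0.46 ± 0.09 (adjusted p = 0.0159) and was lost without shRNA replicate 2 (0.0585) or 3 (0.0598), and without scramble replicate 3 (0.0631). Spry1 (0.35 ± 0.14, adjusted p = 0.197), Spry4 (0.32 ± 0.18, 0.358), Etv4 (0.02 ± 0.10, 0.937) and Etv5 (−0.01 ± 0.09, 0.984) did not pass the threshold, and Etv4 lay within background. Spry4 passed without shRNA replicate 2, at 0.54 (adjusted p = 0.0252). Dusp5, named after its value was seen, was at 0.58 ± 0.12 (adjusted p = 0.0179) and was lost without shRNA replicate 1 (0.0564), shRNA replicate 2 (0.0541) or scramble replicate 2 (0.0577), and with an ordinary t statistic (0.086).

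Of 6 genes of hormone processing and Klotho shedding, 1 rose (16.7% called, beside 12.1% of all named genes). Fap encodes a membrane protease known to cleave and inactivate human FGF21, and its action on mouse FGF21 was not examined here. Fap read 12.5, 12.3 and 10.4 units on the scramble arrays and 35.0, 39.9 and 34.2 units on the shRNA arrays. It rose by 1.63 ± 0.11 (3.10-fold; adjusted p = 0.000658) from a level within background, so the size is uncertain. Fap is also a marker of activated fibroblasts.

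Of 14 genes that regulate Klb or Fgf21 or respond to FGF21 in adipocytes, 8 fell and 6 did not pass, with a median of −0.50. The share called was 57.1%, beside 12.1% of all named genes (6.6% lower). The nuclear receptor gene Pparg, the master regulator of adipocytes, was at −0.96 ± 0.12 (adjusted p = 0.00222), Cebpa at −1.71 ± 0.14 (adjusted p = 0.000697), and Ppara, a regulator of hepatic Fgf21, at −0.64 ± 0.10. The lipogenic factor gene Mlxipl was at −1.41 ± 0.17, the glucose transporter gene Slc2a4 at −1.53 ± 0.14 and the adiponectin gene Adipoq at −0.84 ± 0.08. The other falls, named after their values were seen, were Nr4a1 (−0.55 ± 0.10), lost without scramble replicate 2 (adjusted p = 0.052), and Rxra (−0.36 ± 0.09), lost on leaving out each of the 6 arrays (up to 0.114). Slc2a1 (−0.27 ± 0.13, adjusted p = 0.293), the glucose transporter gene induced by FGF21, and Atf4 (−0.02 ± 0.09, adjusted p = 0.927) did not pass. Ucp1 and Ppargc1a, named after their values were seen, lay within background on all 6 arrays, so neither transcript was detectable above it. Of these 14 genes, Pparg, Cebpa, Slc2a4 and Adipoq are also among the adipocyte markers.

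Markers of other cell types moved with these values in part, and their shares called stand beside 12.1% of all named genes. Of 13 measured markers of progenitors and fibroblasts, 5 rose (Fap, Prrx1, Pdgfrb, Cd44 and S100a4) and Pdgfra fell (46.2% called), with a median log2 change of 0.12. S100a4 was lost without scramble replicate 2 or 3 (limma, adjusted p = 0.0548 and 0.0542). Summed intensities were 12784 to 13808 on the scramble arrays and 14906 to 15488 on the shRNA arrays. Vim, not called at 0.08 ± 0.09, gave the largest part of these sums. Cd34 and Dpp4 lay within background. Of 8 myocyte markers Des fell (12.5% called), above background on 4 arrays and lost on leaving out each of the 6 arrays. Summed intensities of the myocyte markers were 216 to 241 and 191 to 230 units, and Myod1 and Myh3 lay within background. Of 8 bone and cartilage markers Ibsp, Alpl and Bglap fell (37.5% called), with sums of 966 to 1124 and 909 to 977 units. Sox9, not called at −0.05 ± 0.10, gave most of these sums. Ibsp was above background on 4 arrays, and Sp7, Acan and Comp lay within background. Alpl was lost without shRNA replicate 2, scramble replicate 2 or scramble replicate 3 (up to 0.0834). Bglap, above background on 1 array, was lost without shRNA replicate 3, scramble replicate 1 or scramble replicate 3 (up to 0.0606). Of 9 macrophage and endothelial markers 0 were called by limma or by an ordinary t statistic and 0 had an unadjusted p under 0.05. Their sums were 141 to 151 and 136 to 150 units. On all 6 arrays 6 of the 9 lay within background (Adgre1, Csf1r, Ptprc, Lyz2, Pecam1 and Cdh5). No marker was at 0, since the array always gives a signal. The part of these cell states in the values of Klb, Fgf7, Fgf10 and the heparan sulfate genes was not tested.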

How the data were processed

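Per the labels, total RNA of each culture was biotin labelled and put on 1 Affymetrix array. The deposited values are probe set intensities on a linear scale, 1 per array. No source used here gives their normalization. Array medians of 15.6 to 16.1 lie close together, and the values were read as already scaled between arrays. The submitters' processing notes list Expression Console (Affymetrix) and Partek 6.6. How background was corrected is not stated, and it affects dim probe sets most.

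Log2 was taken without a pseudocount. All 33079 probe sets were fitted in R 4.3.3 with lmFit and eBayes of limma 3.58.1 (two-sided, 4 residual and 4 prior degrees of freedom), with Benjamini-Hochberg adjustment over all of them and a threshold of 0.05, the 5% of the series' design text. Groups came from the sample titles. The code was tested on simulated data.

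Names came from the platform annotation, checked against RefSeq GRCm38.p6: 23043 probe sets had 1 symbol, 1740 several and 8296 none. A gene took its probe set of highest mean. Of the pathway and marker genes outside the 10, 5 had several probe sets, and calls differed for Dusp6.

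The members, gene lists and rules were chosen with earlier results of these data known. The naming rule took the 10 genes, Zc3h10, a fixed set of pathway and adipocyte genes, up to 6 called genes per list by smallest p, and the 5 genes most like each called member. The alternatives were cyclic loess, median and quantile scaling, offsets of 8 and 32, filters on dim probe sets, other priors, an ordinary t statistic, a replicate block, the mean of a gene's probe sets, each array left out, and a background floor added later.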

Additional observations from a re-analysis of the deposited data

How the results depend on the processing

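Among the 10 genes no call changed direction, and the 2 calls of Klb and Fgf10 held under the scalings, offsets, priors and probe set filters tried. Klb moved to −2.02 with an offset of 8 or with the background floor, and to −1.31 with an offset of 32. Fgf10 was at −0.76 with both probe sets averaged. The 3238 called probe sets became 1990 with the background floor and 1972 with the ordinary t statistic. The 4 called receptor partners and adaptors became 8 with an intensity trend in the prior and 7 with either offset or without probe sets under the median level. The 1 called hormone processing gene became 2 under those same settings. The 9 heparan sulfate calls became 5 with the ordinary t statistic.

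Deviations of same-numbered arrays in the 2 groups correlated at 0.08, 0 and 0.04, beside −0.09 to 0.06 for differently numbered arrays. These values run over all probe sets, many of them dim, so they cannot exclude that the replicate numbers pair the arrays. With the replicate number as a block, 2455 probe sets were called, 1 RAS and MAP kinase gene in place of 2 (Braf, adjusted p = 0.0612), 3 receptor partners and adaptors in place of 4 (Shc1, 0.0868), 8 heparan sulfate genes in place of 9, 7 FGF21-related adipocyte genes in place of 8, and 2 of the 10 genes as before.

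With 1 array left out, called probe sets numbered 1807 to 2578, called members 1 to 3 (Fgf1 added without scramble replicate 1), receptor partners and adaptors 2 to 4, heparan sulfate genes 7 to 9, RAS and MAP kinase genes 1 to 2, feedback genes 6 to 7, FGF21-related adipocyte genes 6 to 8, other ligands 2 and hormone processing genes 1. Zc3h10 was at −0.52 to −0.22. The 3 arrays per group limit all of these values. The size of a change that rests on signals under 20.7 units, as for Klb, Fap, Bglap, Ibsp and Des, is uncertain.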
